A study of Mus musculus with 1307 samples.

Results

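A set of striated muscle genes was followed through cells of the adult mouse heart that were not named as heart muscle cells. The set holds Tnnt2, Ldb3, Xirp1, Des, Myh6, Tnni3, Myl2, Myl3 and Mb, 9 of the 46517 genes in the count table. The 9 genes were chosen by their measured levels in these same cells, so their levels and differences are descriptions and carry no test. Single cells from dissociated hearts were sorted into 384-well plates and sequenced with Smart-Seq2, a full-length method that counts reads and not molecules, and the labels list each of the 1307 cells as 1 sample. The labels give all mice an age of 8 to 30 weeks. ACTA2GFP:CSPG4dsRED mice carry a green reporter of Acta2, an actin of smooth muscle, and a red reporter of Cspg4, a proteoglycan of mural cells, and gave 368, 245 and 336 cells from 3 mice. They are called double-reporter mice here. C57BL/6 mouse 1, with no reporter named in the labels, gave 347 cells. A further 11 cells came from 4 mice (C57BL/6 mice 2 and 3, 1 CSPG4dsRED mouse and 1 ACTA2GFP mouse) and enter no comparison. The sort gate is not stated, so that the kinds of cell on a plate cannot be read as their share of the heart. Each large mouse filled a plate of its own, so mouse and plate cannot be told apart, and genotype and plate cannot be told apart for the C57BL/6 cells. The labels call double-reporter mouse 3 female where the series text speaks of male mice.

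Striated muscle contracts through sarcomeres, in which myosin thick filaments pull on actin thin filaments and troponin makes the pull depend on calcium. Z-discs anchor the thin filaments, and the intermediate filament desmin ties Z-discs to each other and to the cell membrane. Smooth muscle of the vessel wall has actin and myosin but neither sarcomeres nor troponin in the textbook account, whereas desmin is a known component of many smooth muscle cells and pericytes. Heart muscle cells are large and rich in a few transcripts, and dissociation of a heart can release their RNA into the suspension from which other cells are sorted.

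The members fall into 2 sets by role. The first 4 are structural or regulatory genes: Des encodes desmin, Ldb3 a Z-disc protein that binds alpha-actinin, Xirp1 an actin-binding repeat protein of muscle attachment sites, and Tnnt2 cardiac troponin T, the troponin subunit that binds tropomyosin. The other 5 are abundant heart muscle transcripts: Myh6 (alpha myosin heavy chain), Tnni3 (cardiac troponin I), Myl2 and Myl3 (ventricular myosin light chains) and Mb (myoglobin, the oxygen store of muscle). The summed counts of these 5, called the heart muscle sum below, served as the measure of heart muscle RNA in a cell, and levels are counts scaled to a total of 1000000 (CPM).

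In the GENCODE M21 annotation of GRCm38, Des (ENSMUSG00000026208) lies on the plus strand at chr1:75360329-75368579, Tnnt2 (ENSMUSG00000026414) on the plus strand at chr1:135836354-135852260, Ldb3 (ENSMUSG00000021798) on the minus strand at chr14:34526603-34588682 and Xirp1 (ENSMUSG00000079243) on the minus strand at chr9:120013755-120023598. Ldb3, Xirp1 and Tnnt2 share no exonic base with another annotated gene. Des shares 220 of 3754 exonic bases with Gm15179 on the opposite strand, which had 84 counts in all cells against 103522 for Des. Mb (ENSMUSG00000018893, chr15:77015487-77050670) has the largest such overlap, 412 of 1492 exonic bases with Gm49540, and the share of its counts that this touches cannot be told because the strand setting is not given in the sources used here. Tnni3 shares 86 exonic bases with Dnaaf3, Myl2 60 with Ccdc63, Myl3 95 with Pth1r and Myh6 114 with Gm49130. Myh6 has a near-identical neighbour, Myh7, and reads common to both may have been split, so the Myh6 values are uncertain; Myh6 had 8095 counts in all cells and Myh7 376.

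RefSeq promoter windows (GRCm38.p6, 250 bases before to 50 bases after an annotated start) were found for 8 of the 9 members (all but Xirp1), 13 windows in all. The 250 bases before the start are shown for Ldb3 and Myl3, which hold a CArG box, and for Tnnt2 and Des, which do not, because Ldb3, Tnnt2 and Des were high in the smooth muscle-like cells described below while Myl3 belongs to the heart muscle sum. Capitals mark a CArG box (the binding motif of serum response factor) or an M-CAT motif (CATTCC on either strand, the motif of TEAD factors); sequences read 5′ to 3′ on the gene's strand.
Ldb3, chr14:34588682-34588931, minus strand: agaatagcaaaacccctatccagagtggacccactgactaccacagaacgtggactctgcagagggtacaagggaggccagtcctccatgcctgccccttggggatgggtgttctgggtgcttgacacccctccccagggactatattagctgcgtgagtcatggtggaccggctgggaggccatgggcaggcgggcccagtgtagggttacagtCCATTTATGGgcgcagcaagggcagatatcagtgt
Myl3, chr9:110763428-110763677, plus strand: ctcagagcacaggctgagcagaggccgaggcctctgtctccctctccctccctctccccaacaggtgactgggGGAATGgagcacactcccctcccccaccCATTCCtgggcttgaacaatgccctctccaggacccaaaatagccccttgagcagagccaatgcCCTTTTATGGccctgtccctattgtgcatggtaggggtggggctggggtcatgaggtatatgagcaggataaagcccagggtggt
Tnnt2, chr1:135836084-135836333, plus strand: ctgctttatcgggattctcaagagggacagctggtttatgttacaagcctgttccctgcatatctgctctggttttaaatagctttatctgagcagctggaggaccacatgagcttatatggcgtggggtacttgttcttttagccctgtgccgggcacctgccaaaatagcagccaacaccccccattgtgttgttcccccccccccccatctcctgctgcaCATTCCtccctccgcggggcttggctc
Des, chr1:75360042-75360291, plus strand: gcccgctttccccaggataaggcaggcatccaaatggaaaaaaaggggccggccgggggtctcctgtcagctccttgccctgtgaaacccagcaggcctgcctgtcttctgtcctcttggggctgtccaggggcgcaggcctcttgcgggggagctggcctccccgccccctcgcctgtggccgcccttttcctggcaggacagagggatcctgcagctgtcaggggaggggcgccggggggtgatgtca
The CArG box of Ldb3 begins 35 bases before the start shown and lies at chr14:34588707-34588716, inside both windows that RefSeq gives for the gene. That of Myl3 begins 85 bases before its start, and its M-CAT motifs begin 177 and 149 bases before it. The M-CAT motif of Tnnt2 begins 27 bases before the start shown. A CArG box was found in windows of 2 of the 8 members and in 1.63% of all 32851 windows. The M-CAT motif was found in 3 of 8 members (Tnnt2, Myh6 and Myl3) and in 14.7% of all windows, the letters TATAAA on either strand in 2 of 8 (Myh6 and Myl2) and 13.6%, and the E-box CANNTG in 7 of 8 (all but Ldb3) and 72.3%. No CArG box, M-CAT motif or TATAAA was found in the Des window. Both Myl2 windows (chr5:122092474-122092773 and chr5:122092939-122093238) lie before the annotated gene, which begins at chr5:122100951, and are not next to it. These are matches of letters in short windows. A member counts if any of its windows holds the motif, and 4 members have more than 1 window. The shares of all windows are per single window, so the values set side by side have unlike units.

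The 1296 cells of the 4 large mice held between 52550 and 811982 counts each, with medians of 340988, 220866 and 208888 for double-reporter mice 1, 2 and 3 and of 307957 for the C57BL/6 plate. Clustering without the 9 members and without the other muscle lists gave 16 clusters, named "-like" from marker genes. Smooth muscle-like cells numbered 77 and 22 in double-reporter mice 2 and 3 and were 77 cells of cluster 1 and 49 of cluster 5 in mouse 1. In mice 1, 2 and 3 fibroblast-like cells numbered 93, 96 and 238 and pericyte-like cells 49, 12 and 9. C57BL/6 mouse 1 held 229 endothelial-like and 65 endocardial-like cells, and 1 smooth muscle-like cell. The smooth muscle-like cells were 2 clusters. Cluster 1 (152 cells) was led by Olfr78, Gpr20 and Nrip2 and also had 4 of 8 pericyte markers beside 8 of 8 smooth muscle markers. The leading genes of cluster 5 (74 cells) included Itga8, Sost and Npnt. Cluster 8 (70 cells) had markers of both smooth muscle cells and pericytes and cluster 13 (28 cells) of both Schwann and endothelial cells, and both stayed unnamed.

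Heart muscle RNA was found on every plate, and most on that of C57BL/6 mouse 1. Over all cells of a plate, the heart muscle sum was 140, 61.1 and 94.1 CPM for double-reporter mice 1, 2 and 3. For C57BL/6 mouse 1 it was 657 CPM. At least 1 count of the 5 genes was seen in 68.8%, 47.8%, 70.2% and 96.5% of cells in the same order. All 5 genes were seen together in 8, 3 and 6 cells of the double-reporter mice and in 74 cells of C57BL/6 mouse 1. The C57BL/6 plate thus stood above the other 3 in each of these measures, and with 1 such mouse there is no test.

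**Figure D1:**
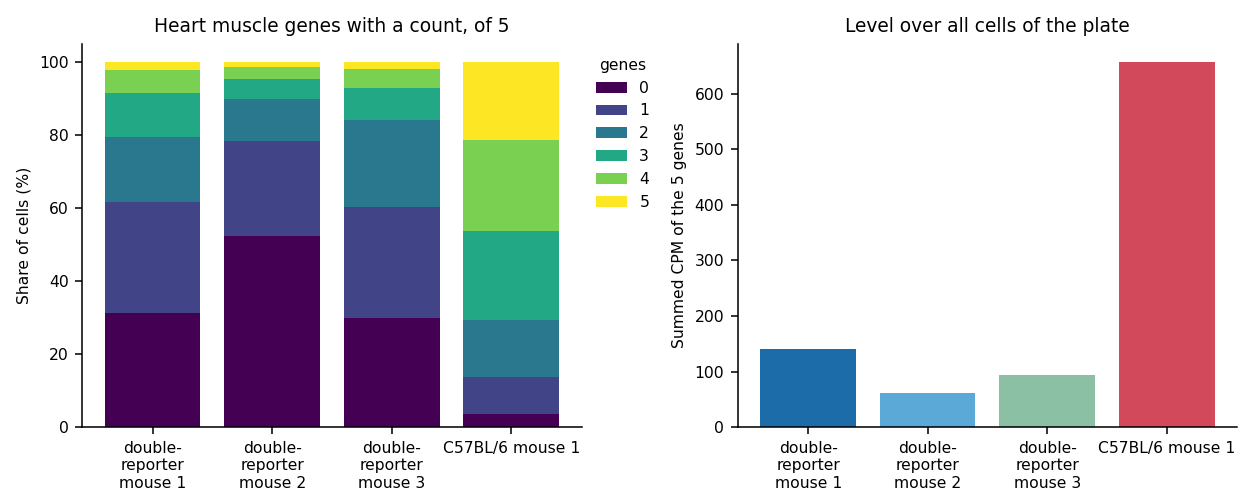
Left: share of cells (%) with counts of 0 to 5 of the heart muscle genes Myh6, Tnni3, Myl2, Myl3 and Mb, per plate; right: CPM of the 5 genes summed over all cells of the plate. The C57BL/6 plate reaches 657 CPM, and the 3 double-reporter plates lie between 61.1 and 140 CPM.

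This RNA sat in few cells. The tenth of cells with the highest heart muscle sum held 68.9%, 75.1% and 63.9% of its counts on the plates of double-reporter mice 1, 2 and 3. On the C57BL/6 plate it held 47.1%. Mb made up 32.6%, 35.0%, 26.4% and 27.5% of the sum on the 4 plates and Myh6 8.89%, 4.99%, 7.52% and 5.61%, so the plates differed more in the amount of the sum than in its makeup. At least 1000 CPM of the sum was reached by 13, 4, 5 and 71 cells, and at least 5000 CPM by 1, 0, 1 and 9. The highest cell, an endothelial-like cell of C57BL/6 mouse 1, had 21730 CPM, and with it 4532 CPM of Tnnt2 and 3991 CPM of Des but no Ldb3 count.

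On the C57BL/6 plate the 5 heart muscle genes followed the cell class. The 229 endothelial-like cells had a sum of 907 CPM (median cell 452 CPM), and the 65 endocardial-like cells of the same plate had 95.8 CPM (median cell 20.2 CPM). The median depth was 296481 counts in the former and 324970 in the latter. Per kilobase of exon, the levels in the endothelial-like cells were 168 CPM for Mb, 105 for Tnni3, 101 for Myl2, 93.7 for Myl3 and 7.47 for Myh6, against 26.7 for Des, 24.3 for Tnnt2, 3.6 for Ldb3 and 1.21 for Xirp1. In those cells 60 of 229 had all 5 heart muscle genes. Mb, Tnni3, Myl2 and Myl3 thus stood above Des and Ldb3 there, whereas Des and Ldb3 stood above them in smooth muscle-like cells, as given below. The heart muscle sum of the 28 cells of cluster 13 was 496 CPM.

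In the double-reporter mice the summed level of the same 5 genes was below that of the C57BL/6 endothelial-like cells in every class. Myh6 was at 23.7, 8.33 and 1.38 CPM in the smooth muscle-like cells of mice 1, 2 and 3 and at 2.96, 0.383 and 4.47 CPM in the fibroblast-like cells. Tnni3 was at 33.9, 14.4 and 0.277 CPM in smooth muscle-like cells, so that mouse 3 lay below its own fibroblast-like cells at 9.75 CPM. Mb was at 49.5, 34.9 and 19.9 CPM in smooth muscle-like cells, at 69.4 and 64.1 CPM in the pericyte-like cells of mice 1 and 2, and at 12.8, 5.71 and 14.8 CPM in fibroblast-like cells. Over the classes with 3 mice, the heart muscle sum was 128 ± 33.5 CPM in smooth muscle-like, 160 ± 82.0 in Schwann-like, 155 ± 168 in mesothelial-like and 37.3 ± 18.6 in fibroblast-like cells (SD, n = 3), and in pericyte-like cells 213 ± 18.3 (SD, n = 2). Macrophage-like cells, measured in mouse 3 alone, were at 322 CPM, and cluster 8 was at 220 and 183 CPM in mice 1 and 2. Smooth muscle-like cells lay within the range of Schwann-like and mesothelial-like cells. Their sums lay below those of pericyte-like cells in both mice compared (165 against 226 and 99.5 against 200 CPM) and above those of fibroblast-like cells in all 3 mice, without overlap. The order did not hold per cell. The median smooth muscle-like cell was at 4.91, 3.72 and 3.77 CPM in mice 1, 2 and 3. The median fibroblast-like cell was at 4.51, 0 and 10.3 CPM, and the median pericyte-like cell of mice 1 and 2 at 2.54 and 95.5 CPM. In mouse 3, 3 cells held 91.8% of the smooth muscle-like sum. Single genes did not all follow the sum, since Myh6 and Tnni3 of mouse 3 were lower in smooth muscle-like than in fibroblast-like cells.

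Des was the member with the highest level per kilobase in smooth muscle-like cells. It stood at 1161, 1222 and 1091 CPM in the smooth muscle-like cells of double-reporter mice 1, 2 and 3, at 410 and 221 CPM in the pericyte-like cells of mice 1 and 2, and at 46.2, 10.2 and 14.2 CPM in fibroblast-like cells. The 3 groups did not overlap, and the order was the same in both mice with at least 10 cells of each. The 9 pericyte-like cells of mouse 3 were at 622 CPM, also between the other classes. Cluster 8, with markers of both mural classes, lay between pericyte-like and smooth muscle-like cells at 476 and 723 CPM in mice 1 and 2. Schwann-like (31.6 ± 24.6 CPM), mesothelial-like (25.7 ± 22.8) and fibroblast-like cells (23.5 ± 19.7; SD, n = 3 each) did not differ beyond their spread. The log2 difference between smooth muscle-like and fibroblast-like sums was 5.97 ± 0.56 (SE, 3 mice), and against pericyte-like sums it was 2.05 ± 0.34 (SE, 2 mice).

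Des was also common per cell. At least 5 counts were found in 77.0%, 74.0% and 72.7% of smooth muscle-like cells of mice 1, 2 and 3, in 55.1% and 41.7% of pericyte-like cells of mice 1 and 2, and in 12.9%, 4.17% and 4.62% of fibroblast-like cells, whose median depth was no lower (392917, 258638 and 244070 counts against 309312, 199675 and 155780). With a single count as the threshold the gap narrowed, since 69.9%, 50% and 24.4% of fibroblast-like cells had at least 1 count. Of the 65, 48 and 58 fibroblast-like cells with a Des count, 53, 44 and 47 had 1 to 4, but the 12, 4 and 11 cells with 5 or more held 94.8%, 74.9% and 92.3% of the counts.

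Ldb3 was high in smooth muscle-like cells and near 0 in pericyte-like cells. It stood at 276, 336 and 337 CPM in the smooth muscle-like cells of double-reporter mice 1, 2 and 3, and at 0.98 and 0 CPM in the pericyte-like cells of mice 1 and 2 (15 counts in 49 cells and 0 in 12 cells). The 9 pericyte-like cells of mouse 3 were at 120 CPM, but all 162 counts came from 1 cell. Fibroblast-like cells were at 27.7, 0.728 and 1.04 CPM. In mouse 1 the counts were mostly those of cluster 11, with 89.8 CPM in 29 cells, of which 1 cell held 44.9%. Unlike Des, Ldb3 thus separated the sums of the 2 mural classes almost completely in mice 1 and 2. Single cells were not so separated. An Ldb3 count was seen in 28 of 46 and 27 of 36 smooth muscle-like cells of mice 1 and 2 without a heart muscle count. Among those with one it was seen in 60 of 80 and 34 of 41. In pericyte-like cells of mouse 1 it was seen in 2 of 19 cells without and 4 of 30 with a heart muscle count. The log2 difference from fibroblast-like sums was 7.10 ± 1.51 (SE, 3 mice), and the fitted difference from pericyte-like sums is not given because 1 of the 2 sums was 0.

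Within the double-reporter mice, Xirp1 was near 0 in fibroblast-like, pericyte-like and Schwann-like cells. It stood at 68.5, 90 and 163 CPM in the smooth muscle-like cells of double-reporter mice 1, 2 and 3, from 2689, 1340 and 588 counts. In mouse 3 a single cell held 70.7% of the counts, and without it the level was 50.3 CPM. Fibroblast-like cells had 3, 2 and 6 counts (0.0823, 0.0766 and 0.101 CPM), pericyte-like cells of mice 1 and 2 had 8 and 0, and Schwann-like cells 0, 0 and 1. A Xirp1 count was seen in 38.1%, 42.9% and 31.8% of smooth muscle-like cells, and in 3.23%, 2.08% and 2.52% of fibroblast-like cells, so that its level was carried by fewer cells than that of Des. On the C57BL/6 plate the endothelial-like cells were at 7.09 CPM, with 486 counts in 10 of 229 cells, and cluster 13 was at 10.7 CPM, with all its counts in 4 of 28 cells.

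Tnnt2 was high in smooth muscle-like cells and in a few mesothelial-like cells. It stood at 444, 255 and 175 CPM in the smooth muscle-like cells of double-reporter mice 1, 2 and 3, at 67.4 and 2.05 CPM in the pericyte-like cells of mice 1 and 2, and at 98.3, 60.2 and 19.2 CPM in fibroblast-like cells. Mesothelial-like cells, from the surface layer of the heart, were at 272, 268 and 344 CPM and overlapped the smooth muscle-like cells. These mesothelial-like sums rest on 12, 23 and 17 cells; 1 cell held 52.6%, 34.0% and 79.0% of their counts, and without it the levels were 137, 187 and 74.0 CPM. That cell of mouse 3 had 12286 CPM of Tnnt2 together with a heart muscle sum of 13818 CPM. The log2 difference between smooth muscle-like and fibroblast-like sums was 2.50 ± 0.33 (SE, 3 mice), and against pericyte-like sums 4.48 ± 1.01 (SE, 2 mice). On the C57BL/6 plate the endothelial-like cells were at 189 CPM, inside the range of the smooth muscle-like sums, beside a heart muscle sum of 907 CPM.

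**Figure D2:**
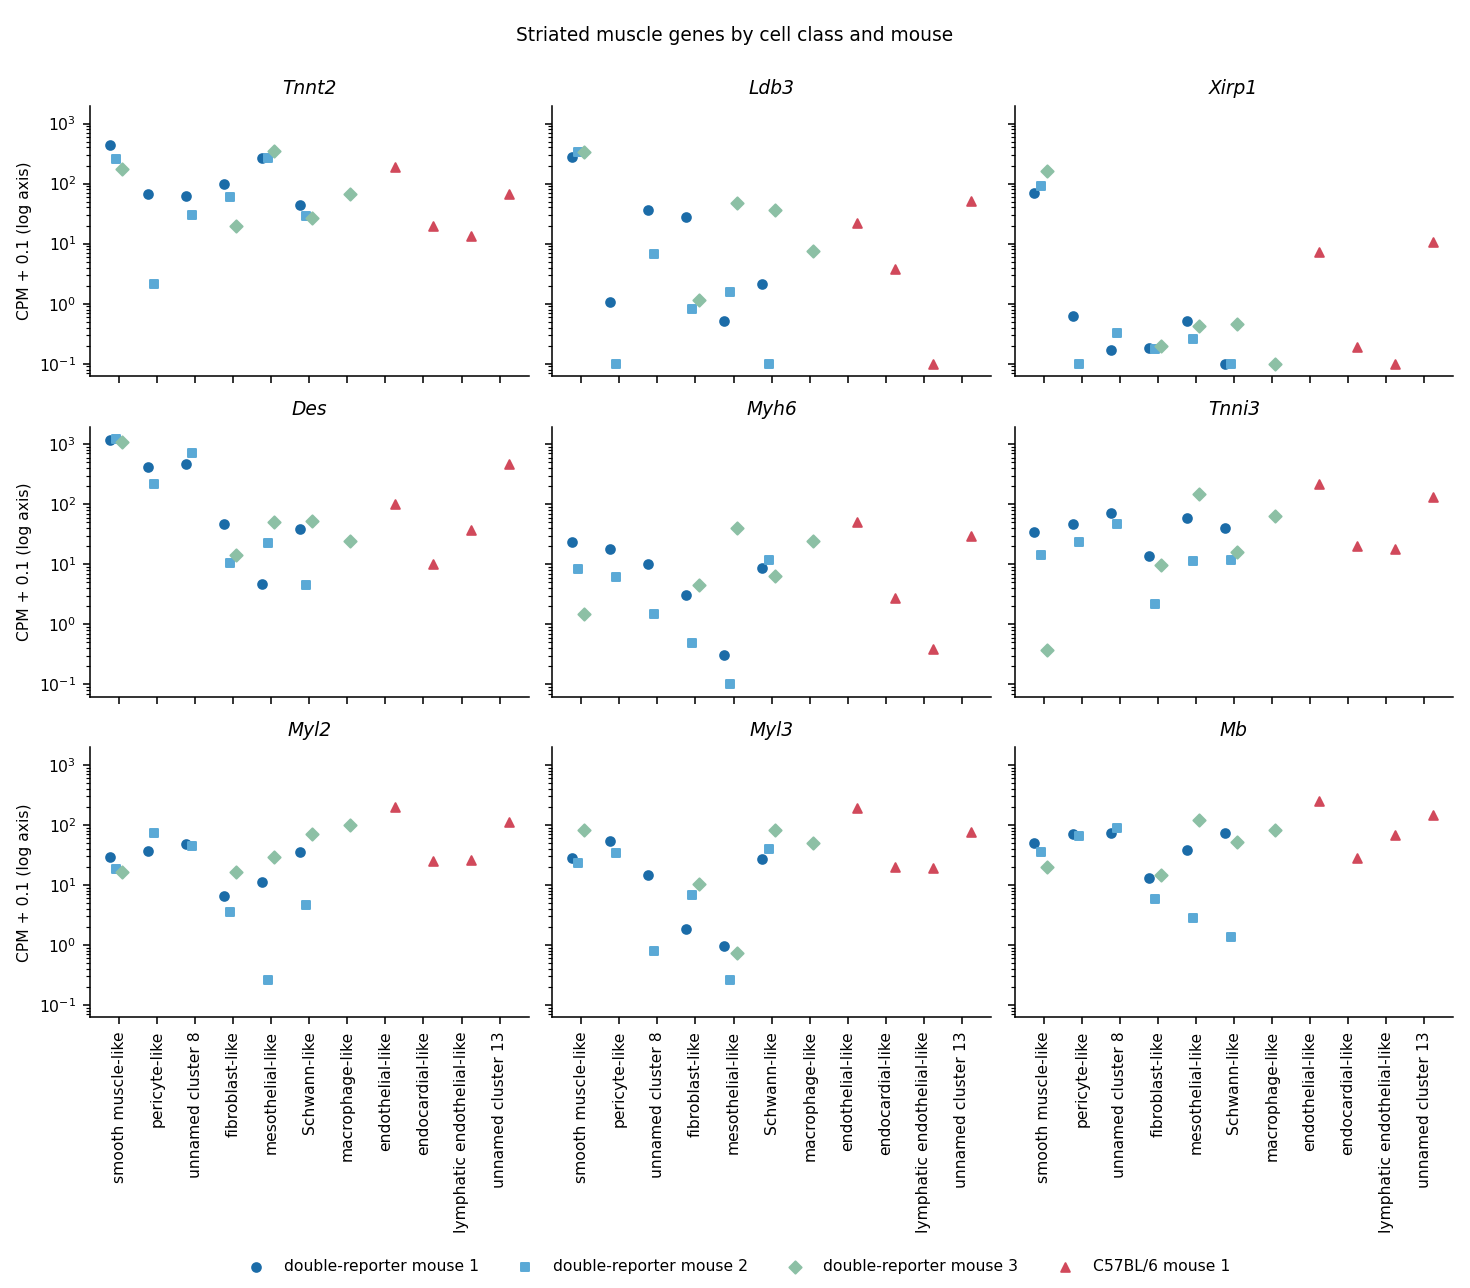
CPM + 0.1 (log axis) of the 9 members by cell class, 1 point per mouse with at least 10 cells of the class. Des, Ldb3 and Xirp1 are highest in the smooth muscle-like sums of each double-reporter mouse, Tnnt2 is also high in mesothelial-like sums (268 to 344 CPM, and 137, 187 and 74.0 CPM without the top cell of each mouse), and Myh6, Tnni3, Myl2, Myl3 and Mb are highest in the endothelial-like cells of the C57BL/6 mouse.

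Per kilobase of exon, levels in smooth muscle-like cells ran from Des (308 ± 17.4 CPM per kb) through Ldb3 (51.8 ± 5.74), Tnnt2 (37.6 ± 17.8), Mb (23.3 ± 9.91), Myl3 (21.6 ± 15.6), Xirp1 (18.3 ± 8.46), Myl2 (11 ± 3.54) and Tnni3 (7.84 ± 8.18) to Myh6 (1.65 ± 1.70; SD, n = 3 mice each). Des stood clear of the rest. Ldb3 and Tnnt2 overlapped within their spread, and so did Mb, Myl3 and Xirp1. Tnnt2 also overlapped Mb, Myl3 and Xirp1. Xirp1 lay within the spread of Mb and Myl3 in these cells, although its level in other classes of the double-reporter mice was near 0.

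The 2 smooth muscle-like clusters differed in which member they carried. Tnnt2 was at 144, 118 and 198 CPM in cluster 1 of mice 1, 2 and 3 and at 790 and 563 CPM in cluster 5 of mice 1 and 2. Des went the other way, with 1564, 1480 and 1389 CPM in cluster 1 and 695 and 640 CPM in cluster 5. The clusters did not overlap in either gene, and the direction was the same in both mice that had at least 10 cells of each. Ldb3 was at 336, 367 and 363 CPM in cluster 1 and at 206 and 266 CPM in cluster 5, and Xirp1 at 79.3, 125 and 209 against 56.0 and 10.9 CPM. Cluster 5 had 49 and 20 cells in these mice; its 4 cells in mouse 3 are left out of this comparison.

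The heart muscle sum was lower in the cluster with more Tnnt2. It was at 239, 131.6 and 151 CPM in cluster 1 of mice 1, 2 and 3 and at 79.0 and 26.9 CPM in cluster 5 of mice 1 and 2. Myh6 was at 0 counts in the 20 cells of cluster 5 of mouse 2, in which Tnnt2 had 2577 counts. In cluster 1 of mouse 3, Tnni3 was at 0 in 18 cells with 558 counts of Tnnt2. In mice 1 and 2 Tnnt2 was thus higher in the cluster with the lower heart muscle sum.

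**Figure D3:**
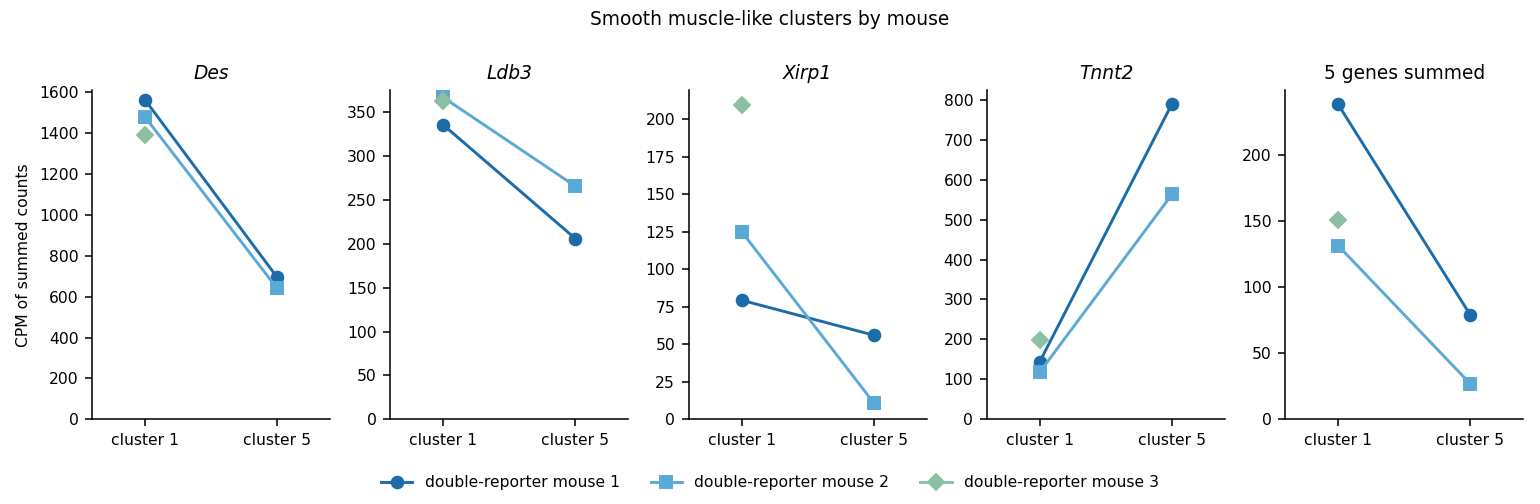
CPM of summed counts in smooth muscle-like clusters 1 and 5 for Des, Ldb3, Xirp1, Tnnt2 and the sum of the 5 heart muscle genes; lines join the clusters of 1 mouse, and mouse 3 has a point for cluster 1 alone. Tnnt2 is higher in cluster 5 (790 and 563 CPM) and Des in cluster 1 (1389 to 1564 CPM).

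The other 4 genes were also measured in cells without a single count of the 5 heart muscle genes, which at these depths does not show that such RNA was absent. In cluster 1, such cells numbered 28, 24 and 10 in double-reporter mice 1, 2 and 3. Their Des level was 1754, 1608 and 972 CPM, against 1464, 1392 and 1750 CPM in the cells that had heart muscle counts. Ldb3 was at 292, 365 and 257 CPM without and 359, 369 and 454 CPM with such counts, and Xirp1 at 60.1, 82.2 and 377 against 89.3, 154 and 63.7 CPM. In mouse 3, 1 cell held 84.6% of the Xirp1 counts of the 10 cells without and 1 held 77.1% of those of the 8 cells with, and the levels were 68.5 and 15.8 CPM when each was left out. All 3 genes were therefore present in cluster 1 cells of each mouse that had no heart muscle count. Xirp1 was lower in the cells without such counts in mice 1 and 2, and Des was higher in them in mice 1 and 2 and lower in mouse 3. The median depth of the cells without was 254592, 191027 and 138833 counts and of the cells with 285984, 177973 and 196609.

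In cluster 5 the genes differed. Des was at 921 and 261 CPM in the 18 and 12 cells without heart muscle counts and at 575 and 1601 CPM in the 31 and 8 cells with them, Ldb3 at 72.2 and 259 against 276 and 282 CPM, and Xirp1 at 24.9 and 2.44 against 72.4 and 32.4 CPM. Ldb3 and Xirp1 were thus lower in the cells without such counts in both mice, and Des was lower in mouse 2, where 1 cell held 65.2% of the Des counts of the cells without and 1 held 55.3% of those with (97.5 and 834 CPM when each was left out). In mouse 1, 1 cell held 83.3% of the Xirp1 counts of the cells without. Tnnt2 was higher in them in both mice.

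For Tnnt2, the 18 and 12 cells of mice 1 and 2 with no heart muscle count were at 1027 and 716 CPM of Tnnt2, and the 31 and 8 cells with such counts at 665 and 177 CPM. In cluster 1, Tnnt2 was at 173, 116 and 96.5 CPM without and 129, 120 and 287 CPM with such counts in mice 1, 2 and 3. In the pericyte-like cells Tnnt2 was at 17.6 and 0 CPM in the 19 and 4 cells without and at 95.3 and 3.11 CPM in the 30 and 8 cells with heart muscle counts. Des in pericyte-like cells was at 209 and 57.7 CPM without and 522 and 306 CPM with. In mouse 2, 1 cell held 86.2% of the Des counts of the 4 pericyte-like cells without, and their level was 9.93 CPM when it was left out. In fibroblast-like cells of mouse 1, Tnnt2 was at 17.8 CPM in cells without and 127.1 CPM in cells with heart muscle counts and Des at 2.81 and 61.7 CPM, whereas in mice 2 and 3 both were higher in the cells without (Tnnt2 80.0 and 25.7 CPM without, 35.2 and 16.5 CPM with). In mouse 3 that order rested on 1 cell, which held 66.7% of the Tnnt2 counts of the cells without: with the top cell of each kind left out Tnnt2 was at 8.73 CPM without and 10.54 CPM with. In mesothelial-like cells Tnnt2 was at 246, 229 and 0.872 CPM in the 4, 16 and 7 cells without and at 281, 365 and 544 CPM in the 8, 7 and 10 cells with, so that in mouse 3 all but 1 of its counts were in cells with heart muscle counts. A single cell held 97.7% of the counts of the 4 cells of mouse 1 without. In mouse 2, where 1 cell held 86.2% of the counts of the cells with, the levels without the top cell of each kind were 154 CPM without and 61.7 CPM with. In Schwann-like cells of mouse 1, Tnnt2 was at 1.95 CPM in the 10 cells without and 60.6 CPM in the 24 cells with. In the endothelial-like cells of C57BL/6 mouse 1, Tnnt2 was at 162 CPM in the 4 cells without (171 counts in 2 cells). The 225 cells with were at 189 CPM.

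**Figure D4:**
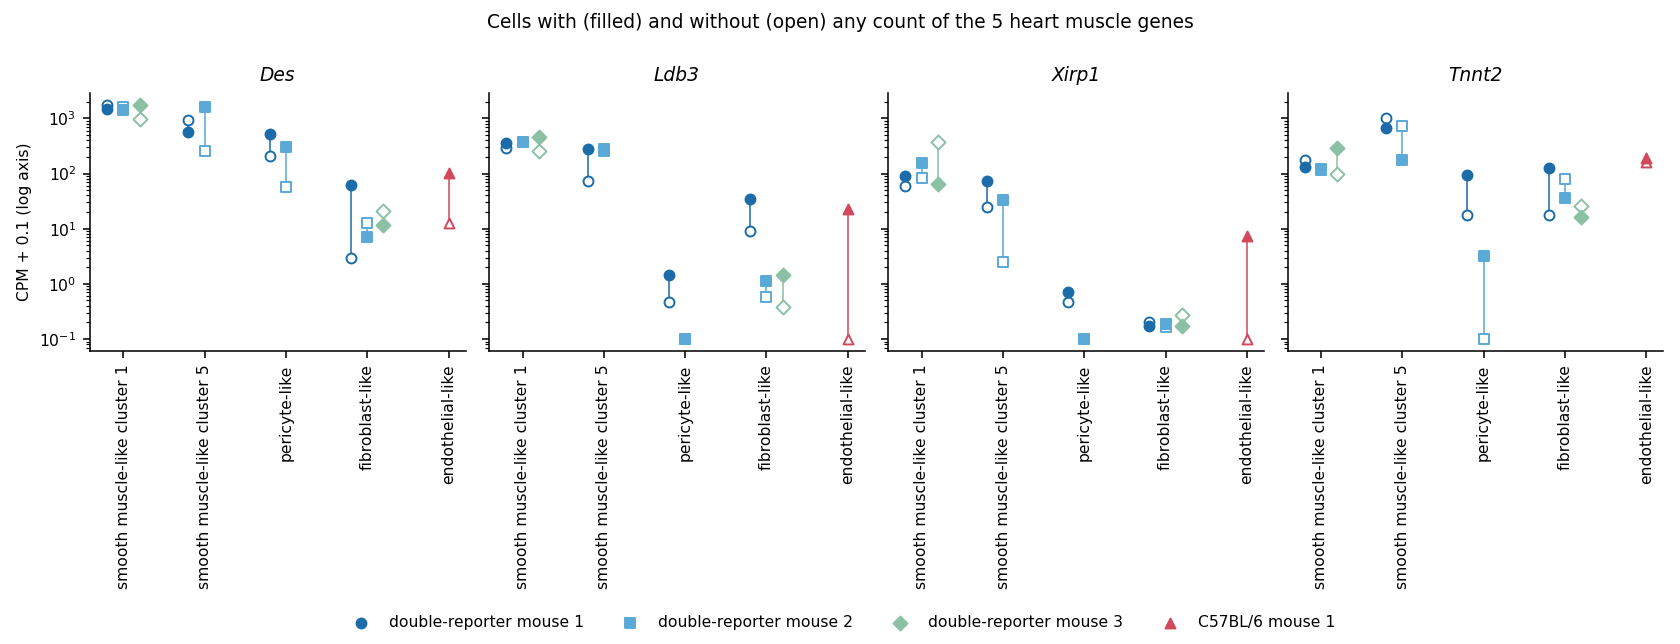
CPM + 0.1 (log axis) of Des, Ldb3, Xirp1 and Tnnt2 in cells with (filled) and without (open) any count of the 5 heart muscle genes; points are sums per mouse, and a line joins the 2 sums of a mouse. In smooth muscle-like cluster 1, Des lies between 972 and 1754 CPM in both kinds of cell. In the endothelial-like cells of the C57BL/6 mouse (4 cells without) Ldb3 and Xirp1 are at 0 without such counts. There Tnnt2 is at 162 CPM without and 189 CPM with, and Des at 12.3 and 102 CPM.

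A ratio to the heart muscle sum gave a further description. In each plate, the counts of a gene per count of the heart muscle sum in fibroblast-like, endothelial-like, endocardial-like, Schwann-like and macrophage-like cells was taken as the ratio of the plate, and the level seen in a class was divided by that ratio times the sum in the class. In the smooth muscle-like cells of mice 1, 2 and 3, Des was 12.9, 33.8 and 45.8 times that value, Ldb3 6.67, 47.6 and 79.3 times, Xirp1 576, 344 and 1078 times and Tnnt2 2.64, 1.20 and 5.26 times. The Xirp1 ratios of these plates rest on 3, 2 and 7 Xirp1 counts in the reference cells, so the size of its values is uncertain. For Tnnt2 the class value hides the clusters, at 9.81 and 9.81 times in cluster 5 of mice 1 and 2 and 0.593, 0.421 and 4.70 times in cluster 1. Mesothelial-like cells were at 2.46, 8.74 and 3.61 times for Tnnt2. Fibroblast-like cells, themselves part of the reference, were at 2.54, 1.54 and 1.23 times. Heart muscle genes, each left out of its own sum, also departed from 1 in smooth muscle-like cells. Myh6 was at 2.85, 2.02 and 0.149 times and Myl3 at 1.67, 0.417 and 8.62 times. Tnni3, Myl2 and Mb lay between 0.0113 and 1.62 times. The Tnnt2 class values thus lay within the range of the heart muscle genes. Pericyte-like cells were at 3.31 and 3.04 times for Des, but at 0.293 and 0.00479 for Tnnt2 and 0.0173 and 0 for Ldb3. Cluster 13 of the C57BL/6 plate was at 8.70 times for Des. These values depend on the cells that set the ratio. The mean over mice for smooth muscle-like cells was 3.03 for Tnnt2, 44.5 for Ldb3, 666 for Xirp1 and 30.8 for Des. With Schwann-like cells alone as the reference it was 9.99 for Tnnt2 and 87.3 for Des. That reference held 0 Xirp1 counts in mice 1 and 2, 1 Xirp1 count in mouse 3 and 0 Ldb3 counts in mouse 2. Its Xirp1 value of 858 was thus of mouse 3 alone, and its Ldb3 value of 83.5 of mice 1 and 3. With fibroblast-like cells alone the means for Tnnt2, Ldb3, Xirp1 and Des were 2.03, 79.5, 388 and 21.3. Without the tenth of cells with the highest sum they were 8.67, 199, 2347 and 79.9. The ratio takes in whatever Tnnt2 and Des the fibroblast-like cells hold, from any source. The Tnnt2 ratio of mouse 2 (2.14) and mouse 1 (1.02) was above that of mouse 3 (0.280) and of the C57BL/6 plate (0.207).

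Over the cells of a whole plate, the 5 heart muscle genes went together more than they did with the other 4. Over all cells of a plate, the median Spearman correlation of log2(CPM + 1) among the 10 pairs of heart muscle genes was 0.229, 0.272 and 0.183 for double-reporter mice 1, 2 and 3 (368, 245 and 336 cells). For the C57BL/6 plate (347 cells) it was 0.421. Between a heart muscle gene and one of the other 4 it was 0.0832, 0.0625, 0.0244 and 0.192. After every cell was thinned to 50000 counts the medians were 0.237, 0.289, 0.173 and 0.432 among heart muscle genes and 0.0818, 0.0942, 0.0204 and 0.195 across. Cells of a plate share a library preparation and a depth range, and many values are 0, so these are descriptions only. The highest values for Tnnt2 were on the C57BL/6 plate, with rho of 0.486 with Mb and 0.464 with Myl2, and 84.5% of its cells with Tnnt2 had Mb against 61.4% of those without. Inside the smooth muscle-like cells of mouse 1 the median was 0.235 among heart muscle genes and 0.0604 across. Within classes the median among heart muscle genes was the higher in 10 of 13 class-by-mouse sets at full depth and in 13 of 13 after thinning. The fibroblast-like cells of mouse 1 were among the exceptions at full depth, with 0.0457 among heart muscle genes and 0.084 across (0.183 and 0.000158 after thinning).

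The genes whose levels followed each member most closely were found over 21 class-by-mouse sums of at least 10 cells, by Pearson correlation of log2(CPM + 1) among 10945 genes. For Xirp1 they were Sgca (r = 0.958), which encodes a sarcoglycan, Gucy2g (0.952) and Grip2 (0.946). For Des they were Ephx3 (0.901), Olfr558 (0.896) and Gm13861 (0.891), and for Ldb3 Ctnna3 (0.873), an alpha-catenin, Slc38a11 (0.840) and Rbm24 (0.821), a splicing regulator of muscle. For Tnnt2 they were Tcea3 (0.826), Hcfc1r1 (0.815) and Ndufb5 (0.755). Those of Myh6 were the sarcomere genes Ttn (0.844), Actc1 (0.786) and Csrp3 (0.784), Tnni3 was nearest to Ckm (0.769), the muscle creatine kinase, and Myl2 and Mb were nearest to each other (0.899). Myl3 was nearest to Rassf4 (0.781). The sums share plates and mice, and the members of each list were picked as the highest of many.

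To place the members among other muscle genes, 4 lists were compared between smooth muscle-like and fibroblast-like sums in the 3 double-reporter mice with edgeR's quasi-likelihood test, mouse as a block and Benjamini-Hochberg adjustment over all 16104 genes tested. Over all genes, smooth muscle-like cells had 365 genes at a higher level (2.27%) and 404 at a lower level (2.51%), with a median log2 difference of -0.17. The cell classes were made from other genes of the same cells, so these calls are not independent of the clustering. Of the 9 members, all 9 passed the filter on low counts, and their differences are given without p. Over the 4 lists 25 genes were called, 23 higher and 2 lower. Without mouse 2, 2 genes of the lists and 52 over all genes were called. With cluster 5 as the only smooth muscle-like cells the numbers were 10 and 241.

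Genes of the Z-disc, the membrane attachment sites and the muscle scaffold made up most of the calls. They were also the largest list, with 37 of the 80 list genes tested. Their share of higher genes was no larger than that of the energy list (6 of 16). Of 37 tested, 13 were higher and 2 lower, with a median log2 difference of 0.94. Sgca was at 238 ± 131.6 CPM against 0.723 ± 0.904 (SD, n = 3), a log2 difference of 8.93 ± 1.25 (SE; edgeR adjusted p = 0.0283). Sorbs2, an adaptor of Z-discs and adhesion sites, was at 1487 ± 435 against 27 ± 16 CPM (log2 5.93 ± 0.45, edgeR adjusted p = 0.00958). Cap2 (log2 5.13, edgeR adjusted p = 0.0257) and Synpo2 (log2 3.20, edgeR adjusted p = 0.0215) were also higher, each in 3 of 3 mice. Ablim1 (log2 -3.71, edgeR adjusted p = 0.0308) and the co-chaperone Bag3 (log2 -1.10, edgeR adjusted p = 0.0499) were lower. Vim, Fhl1 and Pdlim3, the most abundant not called, had log2 differences of -0.74, 0.43 and 0.69.

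Of 21 sarcomere and calcium release genes tested, 4 were higher and 0 lower, with a median of 2.78. Of these, 3 handle calcium in the sarcoplasmic reticulum: Casq2, the calcium store protein calsequestrin (946 ± 370 against 3.19 ± 3.04 CPM, log2 8.65 ± 0.95, edgeR adjusted p = 0.0189), Pln, the inhibitor of the calcium pump (595 ± 123 against 3.07 ± 2.59 CPM, log2 7.94 ± 0.85, edgeR adjusted p = 0.0178) and Hrc (34.6 ± 10.7 against 0.156 ± 0.156 CPM, log2 8.05 ± 1.05, edgeR adjusted p = 0.0248). The other, Myom1, encodes an M-band protein (200 ± 42.8 against 7.77 ± 8.97 CPM, log2 5.36 ± 0.67, edgeR adjusted p = 0.0229). The contractile genes among the most abundant not called were Actc1, cardiac actin, at 87.6 ± 81.5 against 26.9 ± 20.6 CPM, and the giant spring Ttn at 21.1 ± 12.8 against 7.61 ± 10.6 CPM, each higher in 2 of 3 mice. Tcap was at 246 ± 37.5 against 23.7 ± 28.7 CPM (edgeR adjusted p = 0.0541). Pln is also 1 of the 10 cardiomyocyte markers used to name clusters, and their summed level was 828, 963 and 524 CPM in smooth muscle-like cells of mice 1, 2 and 3 and 86.1, 31.4 and 57.8 in fibroblast-like cells, with Mybpc3 and Ckm at 0 in smooth muscle-like cells of mouse 3. With the tenth of cells of highest heart muscle sum left out, 25 genes of the 4 lists were called, 24 higher and 1 lower, beside 715 over all genes.

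Of 16 energy genes of heart muscle, 6 were higher and 0 lower, with a median of 1.51. Cpt1b, the muscle carnitine transferase of fatty acid import, was at 54.9 ± 28.3 against 0.441 ± 0.169 CPM (log2 6.90 ± 0.63, edgeR adjusted p = 0.0143), and the muscle phosphoglycerate mutase Pgam2 at 82.0 ± 35.6 against 2.54 ± 1.21 CPM (log2 5.05 ± 0.46, edgeR adjusted p = 0.0143). Acadm (log2 1.86), Ldhb (1.38) and Atp5a1 (1.23) were higher by less. Slc25a4, Hadha and Pdk4 did not pass. Of the 6 skeletal muscle isoforms tested of 16 on the list, edgeR called 0 in either direction, with 2 at an unadjusted p under 0.05. The fast myosins Myh1, Myh2 and Myh4 had too few counts to be tested. The most abundant of the list, skeletal actin Acta1, was at 37.8 ± 23.4 against 3.52 ± 3.08 CPM.

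**Figure D5:**
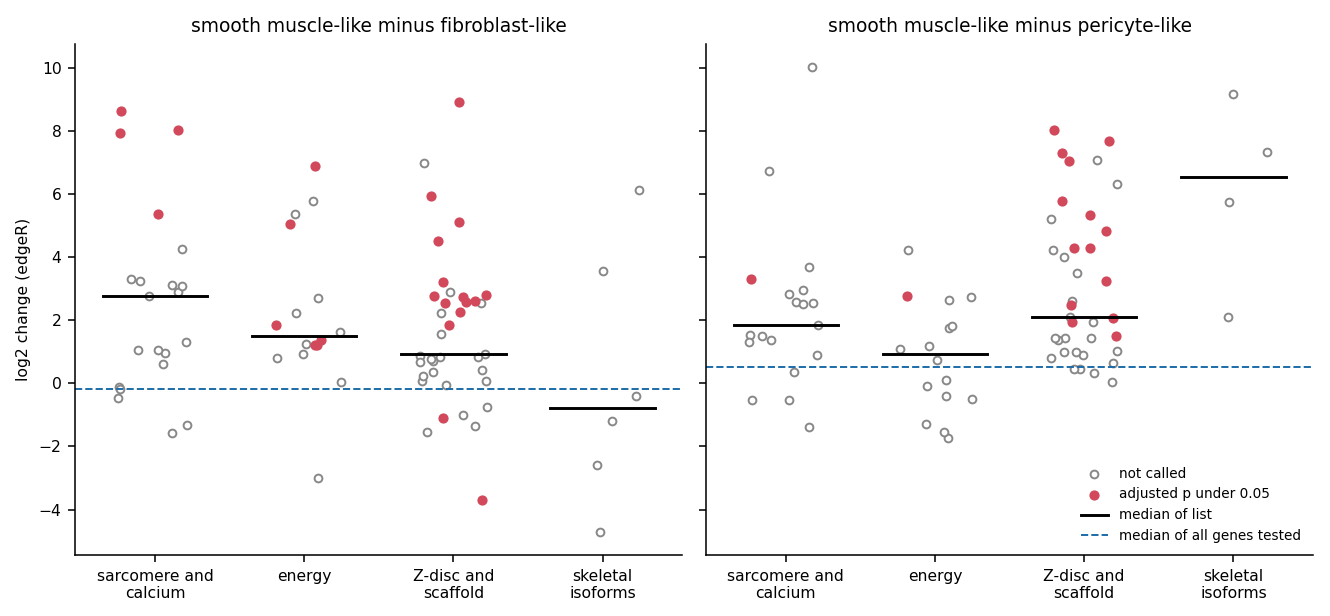
log2 differences (edgeR) of the genes of 4 muscle lists, smooth muscle-like minus fibroblast-like (left, 3 mice) and minus pericyte-like (right, 2 mice); filled points passed an adjusted p of 0.05, black bars are list medians and the dashed line is the median of all genes tested. Most filled points are genes above 0 of the Z-disc and scaffold list, the largest of the 4 lists.

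Against pericyte-like cells, compared in mice 1 and 2 because mouse 3 had 9 such cells and a sum needed 10, the Z-disc and scaffold list again held most calls. edgeR tested 14603 genes and called 155 higher (1.06%) and 80 lower (0.548%), with a median log2 difference of 0.53 over all genes and 1 residual degree of freedom. Of 37 Z-disc and scaffold genes 14 were higher and 0 lower (median 2.09). Hspb6, a small heat shock protein of muscle, was at 604 ± 81.4 against 3.14 ± 0.378 CPM (SD, n = 2; log2 7.69 ± 0.50, edgeR adjusted p = 0.000908), Sorbs2 at 1664 ± 436 against 13.7 ± 9.68 CPM (log2 7.04 ± 0.60, edgeR adjusted p = 0.00185), and Sgca and Synpo2 were also higher (log2 7.30 and 5.79, edgeR adjusted p = 0.0109 and 0.0303). Of the other lists, Pln among 19 sarcomere and calcium genes (653 ± 98.0 against 68.9 ± 17.4 CPM, log2 3.32, edgeR adjusted p = 0.00855) and Ckb, brain-type creatine kinase, among 16 energy genes (log2 2.76, edgeR adjusted p = 0.00492) were higher, and 0 were lower in either; edgeR called 0 of 4 skeletal isoforms, with 3 at an unadjusted p under 0.05. Without the mouse block 7 genes of the 4 lists were called in place of 16, with cluster 1 as the only smooth muscle-like cells 9, at the finer clustering 4, and with mouse 3 added (at least 4 cells per sum) 11. Over all genes these settings called 104, 109, 63 and 182 in place of 235.

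Casq2, unlike Pln, was not higher than in pericyte-like cells. It was at 751 ± 215 CPM in smooth muscle-like and 1130 ± 283 CPM in pericyte-like cells (SD, n = 2; log2 -0.53 ± 0.26, edgeR adjusted p = 0.455), and lower in smooth muscle-like cells in both mice, without passing the test. Among the members, Ldb3 and Xirp1 were near 0 in pericyte-like cells. Des was found in both classes, at a lower level in pericyte-like cells, and within these lower in the cells without heart muscle counts. The 5 heart muscle genes had log2 differences between -1.08 (Myl2) and 0.50 (Myh6), with standard errors of at least 0.95.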

How the data were processed

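Single heart cells were measured by Smart-Seq2. The deposited values are raw read counts per gene and cell, per the labels; the submitters' processing notes name bcl2fastq, Bowtie, Bowtie2, featureCounts and Subread and the builds GRCm38 and mm10, and for the strand setting no statement was found in the labels. The 9 members and the gene lists were chosen with earlier results of these data known. Cells were clustered with scanpy 1.11.5 (2000 variable genes, 30 components, 15 neighbours, Leiden resolution 1), leaving out the members, the lists, the markers and mitochondrial, ribosomal and sex-linked genes. A class needed 3 markers at 100 CPM or more and at 2 times the mean over clusters. After the clusters were seen, a second class was allowed up to 0.85 of the first class's share of markers, which named the endocardial-like cluster, and the genes under study were left out of the check of leading genes, without which Pln would have left cluster 1 unnamed. Scrublet marked 2, 1, 3 and 1 doublets in the 4 large mice, which were kept.

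Sums of counts were formed for each class of a mouse with 10 or more cells and were tested with edgeR 4.0.16 (R 4.3.3, TMM, filterByExpr, quasi-likelihood test, adjusted p of 0.05), with mouse as a block since both classes come from the same animal. Deviations of the sums of 1 mouse correlated at r = 0.118, 0.279 and 0.191 over 6347 genes for the fibroblast-like comparison and at 0.0193 for the pericyte-like one. Named list genes were up to 5 called in each direction with an average log2 CPM of at least 3, by size of change, and up to 3 not called with the highest level; 1 gene that the rule names is not reported here. Cells had at least 50476 counts, reads are not molecules, and intervals over cells would cover counting error only. Alternatives were DESeq2 1.42.0, no filter, no block, each mouse left out, other resolutions, stricter cells, no doublets and no cells rich in heart muscle RNA. Left out of all comparisons were 11 cells of 4 mice with too few cells.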

Additional observations from a re-analysis of the deposited data

Results flagged for a closer look

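The 11 cells of the 4 mice with few cells enter no comparison and held counts of the members, which is why they are listed here. Together they had 1753 counts of Myh6, 1554 of Tnni3, 184 of Myl2, 98 of Myl3 and 1732 of Mb, and of the other genes 1530 of Tnnt2, 1679 of Ldb3 and 958 of Des. Of the 5321 counts of the heart muscle sum, 5108 were in the 3 cells of the ACTA2GFP mouse, each of which had at least 5000 CPM. The 4 cells of C57BL/6 mouse 2 had 153 counts of the sum, the 1 cell of C57BL/6 mouse 3 had 19 and the 3 cells of the CSPG4dsRED mouse had 41. The labels give both sexes for the ACTA2GFP mouse, and the clustering placed 2 of these 3 cells in the mesothelial-like cluster and 1 in an unnamed cluster.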

How the results depend on the processing

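Of 207 recomputed values over all settings, 147 stayed within the spread or within 1.5 times and 60 moved, and 0 reversed. Against fibroblast-like cells, 25 genes of the 4 lists were called (769 over all genes, and brackets below give the same). DESeq2 called 42 (3002), Leiden resolution 0.5 gave 14 (412), and cluster 5 alone, chosen after seeing the data, gave 10 (241). Leaving out 1 mouse gave 2 to 21 calls, with 2 when mouse 2 was left out (52). The fit without the replicate block gave 28 (1293). The number of list calls thus has to be read beside the calls over all genes. Against pericyte-like cells, 16 genes were called (235), DESeq2 called 25 (1125), Leiden resolution 2 gave 4 (63), and cluster 1 alone, chosen after seeing the data, gave 9 (109). Without the replicate block, which pairs the sums of 1 mouse, it gave 7 (104). Leaving out a mouse, the stricter cell filter and leaving out the cells with most heart muscle RNA were not run for this comparison, since 1 mouse remained. The causes of these changes were not tested. The share of cells of a plate with a heart muscle gene was the least stable, and moved in 37 of 60 settings. The ratio to the plate's heart muscle RNA moved in 10 of 44 settings. Levels of the members in smooth muscle-like cells moved in 5 of 81 settings. Without the tenth of cells with the highest heart muscle sum, Des was at 1021, Ldb3 at 328, Xirp1 at 120 and Tnnt2 at 278 CPM, and Myl3 fell to 5.25 CPM from 44.2. Sums of few cells limit the pericyte-like and mesothelial-like values.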
